A study of Mus musculus with 4 samples.

Results

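Wnt proteins are secreted, lipid-modified signals that bind Frizzled receptors together with the co-receptors Lrp5 and Lrp6, or receptors such as Ror2 and Ryk. In the canonical branch they stop the destruction of beta-catenin, which then acts with the TCF and LEF transcription factors, while other branches act on cell polarity and calcium without beta-catenin. In cartilage the pathway is known for its control of chondrocyte differentiation and maturation, and several secreted inhibitors, among them Frzb, are made by chondrocytes themselves. Here 66 genes of the pathway, out of 17575 genes listed in the files, were followed in rib chondrocytes of mice with a conditional knockout of the histone demethylase genes Kdm6a and Kdm6b and in wild type chondrocytes. They were chosen by symbol: every numbered Wnt, Fzd, Sfrp, Dkk, Rspo, Lgr, Axin and Dvl gene that was listed, and further genes given by name, such as Lrp5, Ctnnb1 and Lef1. They comprised 16 Wnt ligands, 2 genes for making and exporting the ligands, 10 Frizzled receptors, 5 co-receptors and other receptors, 9 genes of the R-spondin and Lgr branch, 11 secreted inhibitors, 9 cytoplasmic transducers and 4 TCF and LEF factors.

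The 2 knockout libraries (KO) came from mice carrying a Col2Cre transgene, which drives Cre recombinase in cartilage, with both copies of Kdm6a and of Kdm6b flanked by loxP sites, and the 2 wild type libraries (WT) from mice described only as wild type. All were C57/Bl6 mice aged 10 days, and chondrocytes were freed from rib cartilage with collagenase overnight, filtered and plated before total RNA was taken. The series design speaks of triplicates, 2 libraries of each group were analysed here, and the labels do not say whether a library is 1 animal, so the p-values reflect only how these samples vary, which could be technical variation. No label says whether the WT mice carried the Cre transgene or the loxP-flanked alleles.

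Estimated counts summed to 32230980 to 32332044 per KO library and 31178248 to 31616619 per WT library. Of the targeted genes, Kdm6b measured 51.4 and 46.2 CPM in the KO libraries and 131 and 118 CPM in the WT libraries, where CPM is read counts relative to the scaled library total, and Kdm6a measured 28.6 and 31.4 CPM in KO and 52.6 and 56.9 CPM in WT. Transcripts of both genes thus remained in the KO libraries, 1.83-fold lower for Kdm6a and 2.56-fold lower for Kdm6b (edgeR adjusted p = 0.00489 and 0.00174). Counts cover whole genes, and no value here is for the deleted part alone. Markers of chondrocytes were abundant, and Col2a1 stood at 37111 and 36603 CPM in KO and 26008 and 24370 CPM in WT. Of the 12 chondrocyte markers listed, 4 rose and 1 fell, and their summed level was 12589 and 12114 FPKM (fragments per kilobase of transcript and depth, a level per length) in KO against 9119 and 8604 FPKM in WT. Of the markers of other cells, 3 of 8 tested endothelial, 3 of 5 erythroid, 1 of 6 osteoblast and 2 of 6 fibroblast and perichondrium markers fell, 2 of 4 smooth muscle markers rose, and 0 of 5 macrophage, 0 of 5 skeletal muscle and 0 of 3 tendon markers passed. Of all tested genes 5.63% fell and 3.62% rose. Summed over each marker list, KO had 13.1 to 13.2 FPKM for macrophages against 14.3 to 17.3 FPKM in WT, 23.1 to 26.7 FPKM for endothelium against 31.4 to 36.1 FPKM, 18.3 to 21.4 FPKM for erythroid cells against 39.4 to 46.9 FPKM, 1.55 to 2.76 FPKM for osteoblasts against 7.03 to 8.38 FPKM and 199 to 259 FPKM for fibroblasts and perichondrium against 344 to 516 FPKM. Smooth muscle markers summed to 74.1 to 74.2 FPKM in KO and 23.8 to 28.1 FPKM in WT, and Acta2 supplied most of that sum. Skeletal muscle markers summed to 3.15 and 13.2 FPKM in KO and 5.03 and 4.40 FPKM in WT, and tendon markers to 6.26 and 7.96 FPKM in KO and 7.01 and 9.16 FPKM in WT. Among macrophage markers Aif1 was at or near 0 in every library, and C1qa, C1qb and C1qc were too low to be tested. The part of these other cells in the results below was not tested, and in such bulk samples fewer cells of a type and less RNA per cell cannot be told apart.

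Between KO and WT chondrocytes, 4 Wnt pathway genes rose and 8 fell, and they came from 6 of the 8 roles. The 4 that rose were Wls, the carrier that brings Wnt proteins to the cell surface, the receptor genes Fzd2 and Fzd8, and Lgr4, a receptor for R-spondins. The 8 that fell were the ligand genes Wnt11 and Wnt10b, the receptor genes Fzd5 and Fzd10, the co-receptor gene Lrp5, the R-spondin receptor gene Lgr6, and the transcription factor genes Lef1 and Tcf7. No secreted inhibitor and no cytoplasmic transducer passed the threshold, although at an unadjusted p below 0.05 several of them did, as given below. A change was called at an adjusted p below 0.05 from edgeR's quasi-likelihood test, with Benjamini-Hochberg adjustment over 13773 tested genes.

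Of the 66 members 54 had counts enough to be tested, and 42 of those did not pass. The 4 that rose are 7.41% of the tested members, against 3.62% of all tested genes. The 8 that fell are 14.8% of the tested members, against 5.63% of all tested genes. All 12 had both KO libraries above, or both below, the WT libraries. Since they were picked by p-values from the same libraries, this is no further support for them. Over all 54 tested members the groups did not overlap in 37, where 61.7% of all tested genes did the same, with KO higher in 13 and lower in 24, and such separation held for 30.9% of all tested genes with KO higher and 30.7% with KO lower. At an unadjusted p below 0.05 there were 25 tested members, against 29.2% of all tested genes. The median log2 fold change, KO minus WT, was -0.18 over the tested members and 0.0044 over all tested genes. In the authors' deposited table, 6 members rose and 8 fell at an adjusted p below 0.05, which there held for 3.33% and 5.19% of all genes (8.52% in either direction), and all 12 genes above were among them with the same direction. Ctnnb1 and Ror1 are the other 2. That table compares the same KO and WT groups, so it is no independent support.

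With 3 libraries fewer calls were made. Without WT replicate 1, no gene at all passed in edgeR, with 3442 of all genes and 21 members at an unadjusted p below 0.05, and DESeq2 called 190 genes up and 354 down, of which 2 and 1 were members. Without WT replicate 2, again no gene passed in edgeR, with 2587 genes and 17 members at an unadjusted p below 0.05, and DESeq2 called 125 up and 292 down, with 2 and 2 members. Among the 12 genes the edgeR adjusted p was 0.101 to 0.161 without WT replicate 1 and 0.184 to 0.249 without WT replicate 2, and all 12 kept the sign of their fold change. Since no gene passed in those edgeR fits, they do not show which of the 12 calls rests on a WT library. Without KO replicate 1 or KO replicate 2, the number of members called differed between edgeR and DESeq2. In edgeR the log2 fold change of Wnt11 was -0.98 without KO replicate 1 and -1.13 without KO replicate 2. In the same order it was -1.32 and -0.98 for Fzd5, 0.82 and 0.87 for Fzd2, and 0.72 and 0.60 for Fzd8. For Lgr4 it was 0.56 and 0.60, and for Wls 0.47 and 0.53. Whether Fzd2, Fzd8 and Wls passed in these fits differed between edgeR and DESeq2. With no filter on low counts the adjusted p was 0.0831 for Lrp5, 0.0688 for Lgr6, 0.0532 for Lef1 and 0.0639 for Tcf7, and limma on log2(FPKM + 1) gave 0.101 for Lrp5, 0.0681 for Lgr6 and 0.0566 for Wnt10b.

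**Figure D1:**
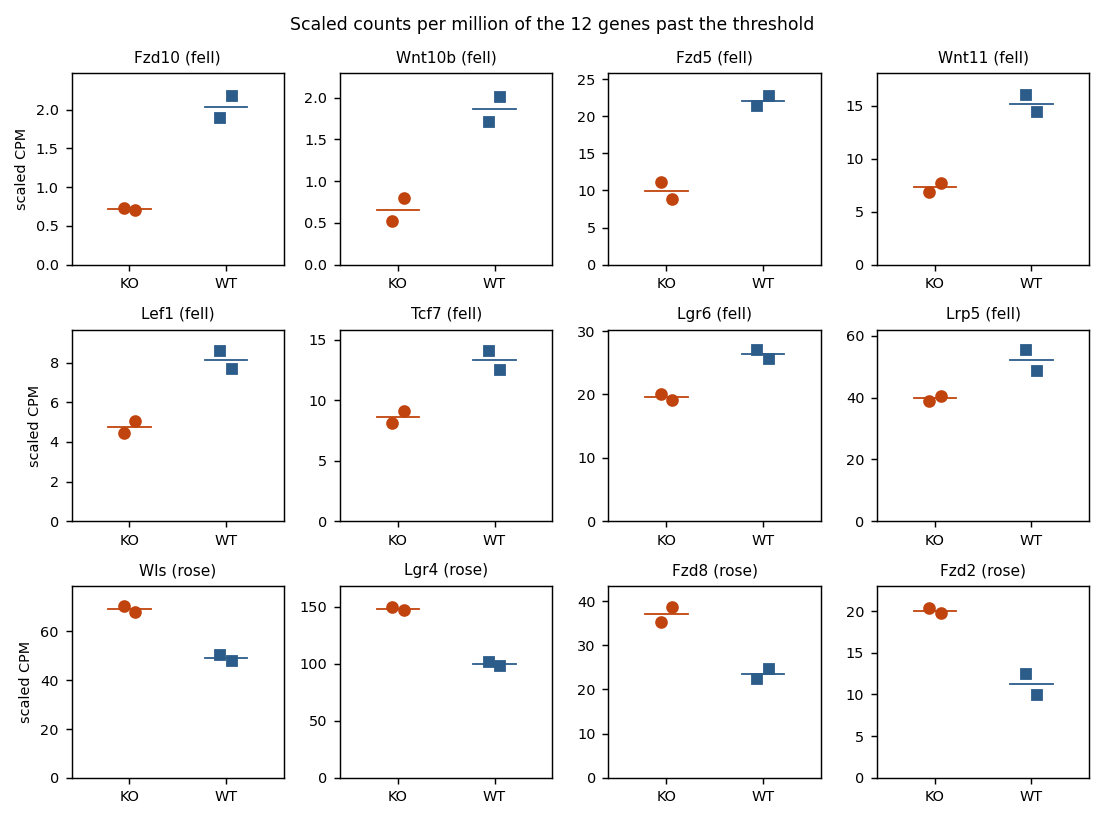
Scaled CPM (vertical axis, from 0) of the 12 genes past the threshold, with a point for each library (KO circles, WT squares) and a line at the group mean. The genes were picked by p-values from these libraries, and in every panel the KO and WT points are apart. KO lies below WT in the 8 genes that fell and above WT in the 4 that rose.

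The sequence just before the transcription start is shown for the 2 members with the smallest p among the falls and for the 2 rises of smallest p in the RefSeq promoter table, which held 44 of the 66 members. Each runs 250 bases 5′ to 3′ on the gene's strand and ends at the base before the start (RefSeq, GRCm38.p6, a build other than the mm9 of the files). Wnt11 lies on the plus strand at chr7:98834862-98835111, Fzd5 on the minus strand at chr1:64737751-64738000, Lgr4 on the plus strand at chr2:109917397-109917646 and Wls on the plus strand at chr3:159839400-159839649. Capitals mark a match to CTTTGAT or CTTTGTT, letters that TCF and LEF factors are known to bind, searched on both strands.
Wnt11: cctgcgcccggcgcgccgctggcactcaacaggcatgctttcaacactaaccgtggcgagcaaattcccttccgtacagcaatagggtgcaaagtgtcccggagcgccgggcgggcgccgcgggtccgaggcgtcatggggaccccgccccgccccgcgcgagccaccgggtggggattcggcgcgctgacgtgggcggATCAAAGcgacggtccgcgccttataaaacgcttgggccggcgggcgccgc
Fzd5: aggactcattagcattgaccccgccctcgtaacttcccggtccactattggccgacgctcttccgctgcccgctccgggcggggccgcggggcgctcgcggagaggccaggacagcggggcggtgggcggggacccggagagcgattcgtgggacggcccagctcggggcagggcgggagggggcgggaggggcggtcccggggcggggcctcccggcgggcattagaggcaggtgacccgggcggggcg
Lgr4: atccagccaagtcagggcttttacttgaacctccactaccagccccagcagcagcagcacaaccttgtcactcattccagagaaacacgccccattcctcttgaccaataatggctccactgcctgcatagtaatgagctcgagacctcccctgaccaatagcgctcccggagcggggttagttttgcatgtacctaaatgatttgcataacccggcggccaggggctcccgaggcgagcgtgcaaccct
Wls: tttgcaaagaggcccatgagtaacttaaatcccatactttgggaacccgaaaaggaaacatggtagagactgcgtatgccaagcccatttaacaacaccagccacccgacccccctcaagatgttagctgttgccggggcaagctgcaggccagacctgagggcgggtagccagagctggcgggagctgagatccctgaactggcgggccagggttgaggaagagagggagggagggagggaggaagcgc
Wnt11 alone of these had a match, on the opposite strand and starting at base -51 counted from the start, and 1 match or more stood in 8.04% of 27025 promoters of the same length. Over the members' promoters 3 of 44 had a match. The stretches held 37 CpG dinucleotides in Wnt11, 32 in Fzd5, 10 in Lgr4 and 8 in Wls, where the median was 22 over the members and 6 over all promoters. The other falling genes with an entry ranged widely, with 37 in Fzd10 and Tcf7, 16 in Lgr6, 14 in Wnt10b and 11 in Lef1. Whether a factor or a histone mark sits at any of these places was not measured. Wnt11 has a further start in the table, not shown.

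Wnt ligands were low in these cells, and of 16 listed only Wnt11 exceeded 2 FPKM in any library. Of the 9 ligands tested 2 fell, 0 rose and 7 did not pass, with a median log2 fold change of -0.47. Wnt11, a ligand best known for acting without beta-catenin, measured 6.90 and 7.70 CPM in KO and 16.0 and 14.4 CPM in WT. It fell 2.08-fold (log2 fold change -1.06, SE 0.13, edgeR adjusted p = 0.00935). Wnt10b, a ligand of the canonical branch known for favouring bone formation, measured 0.519 and 0.798 CPM in KO and 1.71 and 2.01 CPM in WT, from 17 and 26 counts in KO against 54 and 61 counts in WT. It fell 2.81-fold (log2 fold change -1.49, SE 0.33, edgeR adjusted p = 0.0426), and its adjusted p was 0.115 without KO replicate 1 and 0.0688 with no filter on low counts. At these counts the fold is loosely bounded, with a 95% interval of the log2 fold change from -2.29 to -0.69.

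Among ligands that did not pass, Wnt7b had the lowest unadjusted p. It measured 1.53 and 2.88 CPM in KO and 3.95 and 5.20 CPM in WT (log2 fold change -1.05, SE 0.32, edgeR adjusted p = 0.0924). Both KO libraries were below both WT libraries, as in 30.7% of all tested genes, but the size depended on the KO library kept. The log2 fold change was -0.66 without KO replicate 1 (edgeR adjusted p = 0.193) and -1.57 without KO replicate 2 (edgeR adjusted p = 0.0102). Wnt5a, the classic ligand of the branch without beta-catenin in growth cartilage, measured 2.2 and 4.88 CPM in KO and 2.53 and 3.49 CPM in WT, so the groups overlapped and the KO libraries differed widely. Its log2 fold change was 0.23 with a 95% interval from -0.69 to 1.16, and without KO replicate 2 it was -0.44. Wnt5b, its close relative, measured 2.50 and 3.50 CPM in KO and 2.88 and 2.63 CPM in WT (log2 fold change 0.12, 95% interval -0.45 to 0.69), and -0.13 without KO replicate 2. Wnt4, another ligand of developing cartilage, measured 1.13 and 1.26 CPM in KO and 1.14 and 1.71 CPM in WT (log2 fold change -0.25, 95% interval -1.02 to 0.51), and 0.07 without WT replicate 2. These 3 ligands overlapped between the groups, and changes within their intervals were not detectable with 2 libraries a group. The remaining tested ligands, Wnt2b, Wnt9a and Wnt10a, overlapped between the groups too, at log2 fold changes of -0.04, -0.47 and -1.09.

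On the scale of FPKM, which can be compared between genes, Wnt11 held 40.8% and 32.4% of the summed ligand level in the KO libraries and 49.5% and 46.3% in the WT libraries. Wnt5b followed with 18.5% and 18.8% in KO and 10.7% and 10.2% in WT. The summed ligand level was 5.95 and 8.48 FPKM in KO and 11.3 and 10.6 FPKM in WT, and the fall of Wnt11 alone, which averaged 2.59 FPKM in KO and 5.24 FPKM in WT, made up most of that difference. Wnt1, Wnt2, Wnt6, Wnt7a, Wnt8a, Wnt9b and Wnt16 were too low to be tested, with at most 10 counts in a library.

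**Figure D2:**
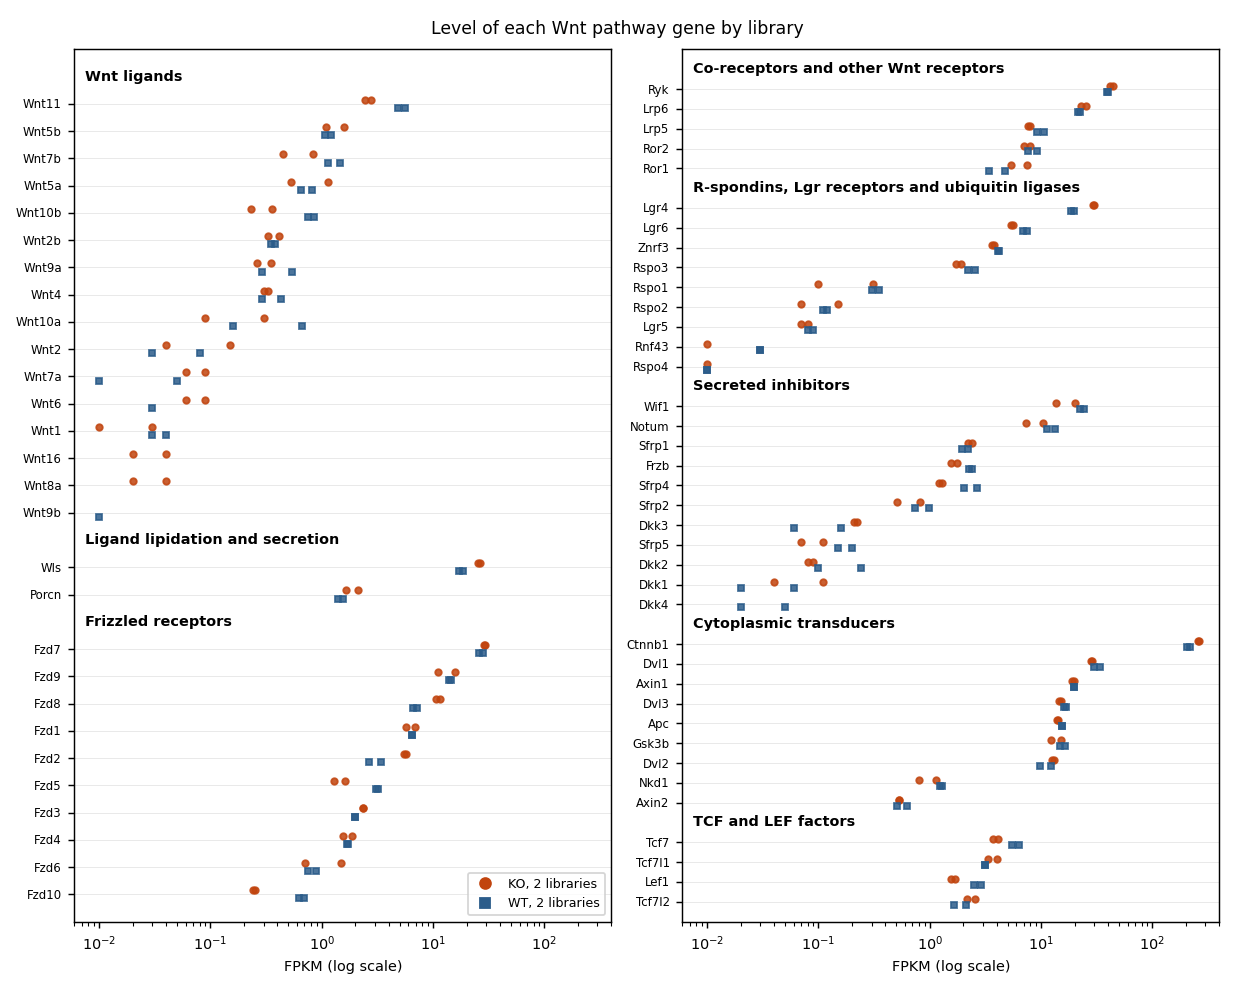
FPKM on a log scale of all 66 genes, grouped by role and ordered within a role by mean level, with a point for each KO library (circles) and each WT library (squares), and values listed at 0 left out. The ligands lie mostly below 1 FPKM, whereas Ctnnb1, which encodes beta-catenin, stands above 200 FPKM in all 4 libraries.

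Of the genes that make ligands ready for export, Wls rose and Porcn did not pass. Wls, the sorting receptor of Wnt proteins, measured 70.3 and 68.1 CPM in KO and 50.4 and 47.8 CPM in WT. It rose 1.41-fold (log2 fold change 0.49, SE 0.072, edgeR adjusted p = 0.0133). Its 2 KO libraries differed by far less than the gap between the groups. Since Wls was picked by that p-value, this is no further support. Porcn, the enzyme that adds the lipid, measured 3.88 and 3.04 CPM in KO and 2.88 and 2.67 CPM in WT (log2 fold change 0.32, SE 0.21, edgeR adjusted p = 0.359).

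All 10 Frizzled receptor genes were listed and tested, and 2 rose, 2 fell and 6 did not pass. Fzd2 measured 20.4 and 19.8 CPM in KO and 12.4 and 9.97 CPM in WT, a 1.79-fold rise (log2 fold change 0.84, SE 0.13, edgeR adjusted p = 0.0168). Fzd8 measured 35.4 and 38.6 CPM in KO and 22.3 and 24.6 CPM in WT, a 1.58-fold rise (log2 fold change 0.66, SE 0.094, edgeR adjusted p = 0.0128). Both belong to receptors that bind Wnt proteins through an extracellular cysteine-rich domain. Both were higher in each KO library than in either WT library, as were 30.9% of all tested genes. Fzd5 measured 11.1 and 8.81 CPM in KO and 21.4 and 22.7 CPM in WT, a 2.22-fold fall (log2 fold change -1.15, SE 0.14, edgeR adjusted p = 0.00884). Fzd10 was scarce, at 0.732 and 0.706 CPM in KO and 1.90 and 2.17 CPM in WT, or 24 and 23 counts in KO against 60 and 66 in WT. It fell 2.82-fold (log2 fold change -1.50, SE 0.28, edgeR adjusted p = 0.0267), with an adjusted p of 0.0514 without KO replicate 1 and 0.0538 without KO replicate 2. Fzd5 and Fzd8 form a pair of close relatives, and here the one fell and the other rose.

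The most abundant Frizzled transcript was that of Fzd7, with 28.5 to 29.1 FPKM in KO and 26.0 to 27.9 FPKM in WT. Its counts did not pass (log2 fold change 0.06, 95% interval -0.13 to 0.25, edgeR adjusted p = 0.653), and without WT replicate 1 its log2 fold change was -0.01. Fzd9 came next, at 11.1 and 15.7 FPKM in KO and 13.9 and 14.6 FPKM in WT. Fzd8 had a level of 10.7 and 11.6 FPKM in KO against 6.65 and 7.13 FPKM in WT, and Fzd1 one of 5.72 and 6.83 FPKM in KO against 6.41 and 6.49 FPKM in WT, so that these neighbours lay close together in WT and apart in KO. Fzd2 had a level of 5.66 and 5.48 FPKM in KO, within 1.35 FPKM of Fzd1 in each KO library, and of 3.41 and 2.67 FPKM in WT, where it did not differ from Fzd5 at 3.09 and 3.20 FPKM beyond the spread. Fzd8 thus made up 15.5% and 15.4% of the summed Frizzled level in KO and 10.3% and 10.6% in WT, and Fzd5 2.37% and 1.70% in KO and 4.79% and 4.76% in WT. The sum itself was 68.7 and 75.3 FPKM in KO and 64.5 and 67.3 FPKM in WT, without the library scaling used for CPM. On scaled CPM Fzd7 overlapped between the groups, at 139.8 and 137.2 CPM in KO and 126.6 and 139.4 CPM in WT. Fzd3, at an unadjusted p just below 0.05, had a log2 fold change of 0.20 (edgeR adjusted p = 0.171). Fzd1, Fzd4, Fzd6 and Fzd9 overlapped between the groups, with log2 fold changes from -0.13 to 0.39. The estimated counts of 14 members, Fzd1, Fzd2, Fzd3, Fzd6 and Fzd7 among them, were off a whole number by more than 0.005 in at least 1 library, as happens where reads are shared among similar sequences, and no label says how they were split.

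Among the co-receptors Lrp5 fell and Lrp6 did not pass. Lrp5 measured 39.0 and 40.7 CPM in KO and 55.5 and 48.7 CPM in WT, a 1.31-fold fall (log2 fold change -0.39, SE 0.089, edgeR adjusted p = 0.0464). It lay just past the threshold, and its adjusted p was 0.126 without KO replicate 1, 0.0772 without KO replicate 2 and 0.0522 with upper-quartile scaling. Lrp6 measured 237 and 215 CPM in KO and 202 and 217 CPM in WT (log2 fold change 0.11, 95% interval -0.09 to 0.31), and at 22.9 to 25.4 FPKM in KO and 21.4 to 22.3 FPKM in WT it was the more abundant of the pair in every library. Ror1, a receptor tyrosine kinase that binds Wnt5a, measured 18.9 and 26.2 CPM in KO and 16.7 and 12.5 CPM in WT (log2 fold change 0.63, SE 0.20, edgeR adjusted p = 0.1004). It did not pass with all 4 libraries in edgeR, but DESeq2 gave an adjusted p of 0.0367. In edgeR the adjusted p was 0.0132 without KO replicate 1 and 0.248 without KO replicate 2. Its relative Ror2, needed for cartilage growth in mice, measured 27.9 and 31.6 CPM in KO and 36.6 and 31.6 CPM in WT, a log2 fold change of -0.20 with a 95% interval from -0.46 to 0.06. Ryk was the most abundant receptor gene of all, at 41.8 to 43.9 FPKM in KO and 39.5 to 39.7 FPKM in WT (log2 fold change of counts 0.09, SE 0.072, edgeR adjusted p = 0.464).

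R-spondins raise the number of Frizzled receptors at the membrane by binding Lgr receptors and removing the ubiquitin ligases Znrf3 and Rnf43. Of 7 tested genes of this branch 1 rose, 1 fell and 5 did not pass. Lgr4 measured 150.2 and 147 CPM in KO and 102 and 98.1 CPM in WT, a 1.49-fold rise (log2 fold change 0.57, SE 0.070, edgeR adjusted p = 0.00903). Lgr6 measured 20.1 and 19.1 CPM in KO and 27.1 and 25.6 CPM in WT, a 1.34-fold fall (log2 fold change -0.42, SE 0.090, edgeR adjusted p = 0.0383), with an adjusted p of 0.0712 without KO replicate 1 and 0.127 without KO replicate 2. Neither receptor overlapped between the groups, as held for 61.7% of all tested genes. On the FPKM scale Lgr4 stood well above Lgr6, at 29.1 to 29.8 FPKM against 5.32 to 5.61 FPKM in KO, and at 18.7 to 19.9 FPKM against 6.86 to 7.44 FPKM in WT. Lgr5, a stem cell marker in gut and skin, had 13.6 counts or fewer in every library.

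Znrf3 measured 25.7 and 25.2 CPM in KO and 28.7 and 29.9 CPM in WT (log2 fold change -0.21, SE 0.082, edgeR adjusted p = 0.158). Rspo3, the most abundant R-spondin, measured 4.06 and 4.51 CPM in KO and 5.28 and 6.25 CPM in WT (log2 fold change -0.43, SE 0.17, edgeR adjusted p = 0.159). Both were lower in each KO library than in either WT library at an unadjusted p below 0.05, without passing. Such separation with KO lower held for 30.7% of all tested genes. Rspo1 and Rspo2 had at most 20 counts in a library and wide intervals. Rnf43 and Rspo4 had at most 4 counts and were not tested.

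No secreted inhibitor passed among the 8 tested. Their median log2 fold change was -0.51, with 6 values below 0. In 5 both KO libraries lay below both WT libraries, as they did in 30.7% of all tested genes. Sfrp4, which binds Wnt proteins and keeps them from their receptors, came closest to the threshold, at 2.14 and 2.24 CPM in KO and 3.57 and 4.81 CPM in WT (log2 fold change -0.94, SE 0.22, edgeR adjusted p = 0.0516), and DESeq2 gave an adjusted p of 0.0477. In the authors' deposited DESeq2 comparison the adjusted p of Sfrp4 was 0.0605, which did not pass. Frzb, a related decoy long known from cartilage, measured 5.10 and 4.51 CPM in KO and 6.99 and 6.78 CPM in WT (log2 fold change -0.52, SE 0.15, edgeR adjusted p = 0.0819). Notum, the enzyme that strips the lipid from Wnt proteins, measured 14.5 and 20.7 CPM in KO and 27.1 and 23.4 CPM in WT (log2 fold change -0.53, SE 0.18, edgeR adjusted p = 0.112). Wif1, which binds Wnt proteins directly, measured 44.9 and 30.3 CPM in KO and 55.0 and 51.4 CPM in WT (log2 fold change -0.50, SE 0.17, edgeR adjusted p = 0.120).

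For Notum and Wif1 the 2 KO libraries differed widely from each other, and in opposite order. The log2 fold change of Notum was -0.29 without KO replicate 1 (edgeR adjusted p = 0.283) and -0.80 without KO replicate 2 (edgeR adjusted p = 0.00965). That of Wif1 was -0.81 without KO replicate 1 (edgeR adjusted p = 0.00259) and -0.23 without KO replicate 2 (edgeR adjusted p = 0.273). Sfrp1 overlapped between the groups, at 9.67 and 10.6 CPM in KO and 9.80 and 8.76 CPM in WT, and Dkk3 had a log2 fold change above 0, at 23 and 24 counts in KO against 17 and 6 counts in WT. On the FPKM scale Wif1 was the most abundant inhibitor in all 4 libraries, at 20.3 and 13.7 FPKM in KO and 24.6 and 22.4 FPKM in WT. Summed over all 11 inhibitors the level was 33.8 and 30.6 FPKM in KO and 46.1 and 41.9 FPKM in WT, with no overlap between the groups, and Wif1 and Notum together held most of it. The Dickkopf genes Dkk1, Dkk2 and Dkk4, named for inhibitors that act through Lrp5 and Lrp6, had 28.2 counts or fewer in every library. Sfrp2 overlapped between the groups, and Sfrp5 had at most 12 counts and was not tested.

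**Figure D3:**
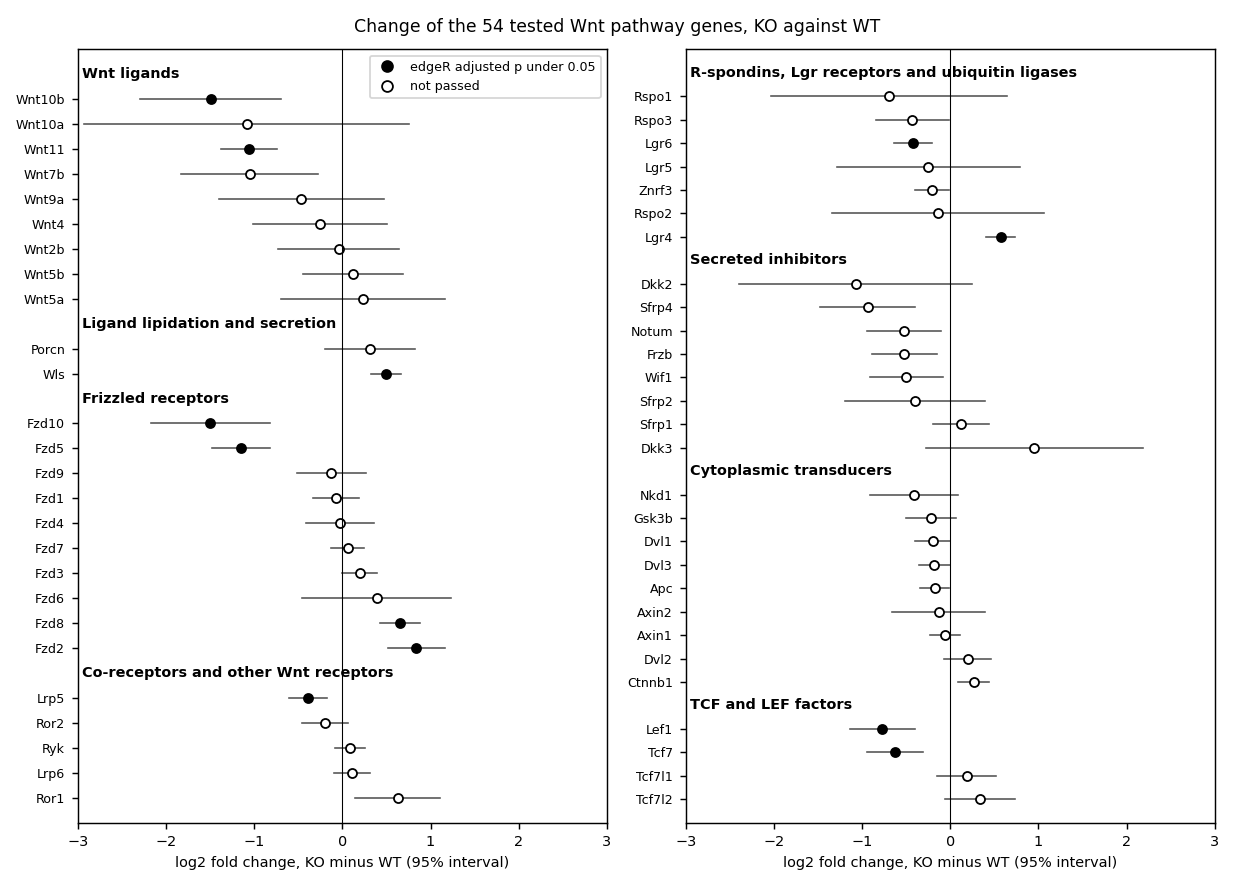
Log2 fold change, KO minus WT (horizontal axis), of the 54 tested genes by role, with 95% intervals from edgeR and filled points for genes past an adjusted p of 0.05. Filled points lie on both sides of 0 among the Frizzled and Lgr receptors, while those of the ligands and of the TCF and LEF factors lie below 0.

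No cytoplasmic transducer passed, and the log2 fold changes of the 9 were small, from -0.41 to 0.27. Ctnnb1, the gene of beta-catenin, was the most abundant of all 66 members at 258 and 263 FPKM in KO and 218 and 203 FPKM in WT. Its counts came to 895 and 916 CPM in KO and 769 and 735 CPM in WT (log2 fold change 0.27, SE 0.073, edgeR adjusted p = 0.0696). The groups did not overlap, as in 61.7% of all tested genes, and DESeq2 gave an adjusted p of 0.0176. Of the proteins that lead to the destruction of beta-catenin, Apc measured 178 and 175 CPM in KO and 196 and 201 CPM in WT (log2 fold change -0.17, SE 0.069, edgeR adjusted p = 0.154), and the kinase gene Gsk3b 101 and 125 CPM in KO and 124 and 140 CPM in WT (log2 fold change -0.22, 95% interval -0.51 to 0.07). The scaffold gene Axin1 had a log2 fold change of -0.06 with a 95% interval from -0.23 to 0.11. The Dishevelled genes, which relay the signal from Frizzled, split: Dvl1 and Dvl3 had log2 fold changes of -0.20 and -0.18, each at an unadjusted p below 0.05 but an edgeR adjusted p of 0.166 and 0.167, and Dvl2 one of 0.20 with an adjusted p of 0.293.

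Axin2, whose transcription is the standard readout of beta-catenin signalling, was low and showed no detectable difference. It had 74 and 73 counts in KO and 84 and 69 counts in WT, or 2.26 and 2.24 CPM in KO and 2.66 and 2.27 CPM in WT. Its log2 fold change was -0.13 with a 95% interval from -0.66 to 0.40. Nkd1, another feedback gene of the pathway, measured 3.45 and 4.94 CPM in KO and 5.66 and 5.50 CPM in WT (log2 fold change -0.41, 95% interval -0.91 to 0.09, edgeR adjusted p = 0.241).

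Of the 4 factors through which beta-catenin acts on genes, Lef1 and Tcf7 fell, and Tcf7l1 and Tcf7l2 did not pass. Lef1 measured 4.45 and 5.06 CPM in KO and 8.57 and 7.67 CPM in WT, a 1.71-fold fall (log2 fold change -0.77, SE 0.15, edgeR adjusted p = 0.0318). Tcf7 measured 8.12 and 9.11 CPM in KO and 14.1 and 12.5 CPM in WT, a 1.54-fold fall (log2 fold change -0.63, SE 0.13, edgeR adjusted p = 0.0380). Without KO replicate 1 the adjusted p was 0.0816 for Lef1 and 0.0969 for Tcf7. Tcf7l1, known mainly as a repressor, measured 11.3 and 9.45 CPM in KO and 8.98 and 9.25 CPM in WT (log2 fold change 0.19, 95% interval -0.15 to 0.52). Tcf7l2 measured 10.3 and 8.78 CPM in KO and 8.35 and 6.72 CPM in WT (log2 fold change 0.34, 95% interval -0.06 to 0.73).

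The order of the 4 factors by level therefore differed between the groups. On the FPKM scale Tcf7 led in both WT libraries, at 6.31 and 5.46 FPKM against 3.15 and 3.15 FPKM of Tcf7l1, while in KO Tcf7, at 3.68 and 4.12 FPKM, and Tcf7l1, at 4.0 and 3.33 FPKM, did not differ beyond their spread. Lef1 was at 1.54 and 1.69 FPKM in KO, below Tcf7l2 at 2.53 and 2.17 FPKM, and at 2.86 and 2.51 FPKM in WT, above Tcf7l2 at 2.10 and 1.64 FPKM. Lef1 and Tcf7 together made up 44.4% and 51.4% of the summed level of the 4 factors in KO and 63.6% and 62.5% in WT. The counting's use of strand is not given. Overlapping exons in the GENCODE annotation were searched only for the members past the threshold. Among them, exons of a gene on the opposite strand overlap those of Lef1, Fzd5 and Wnt11, whose reads would not be told apart without strand.

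**Figure D4:**
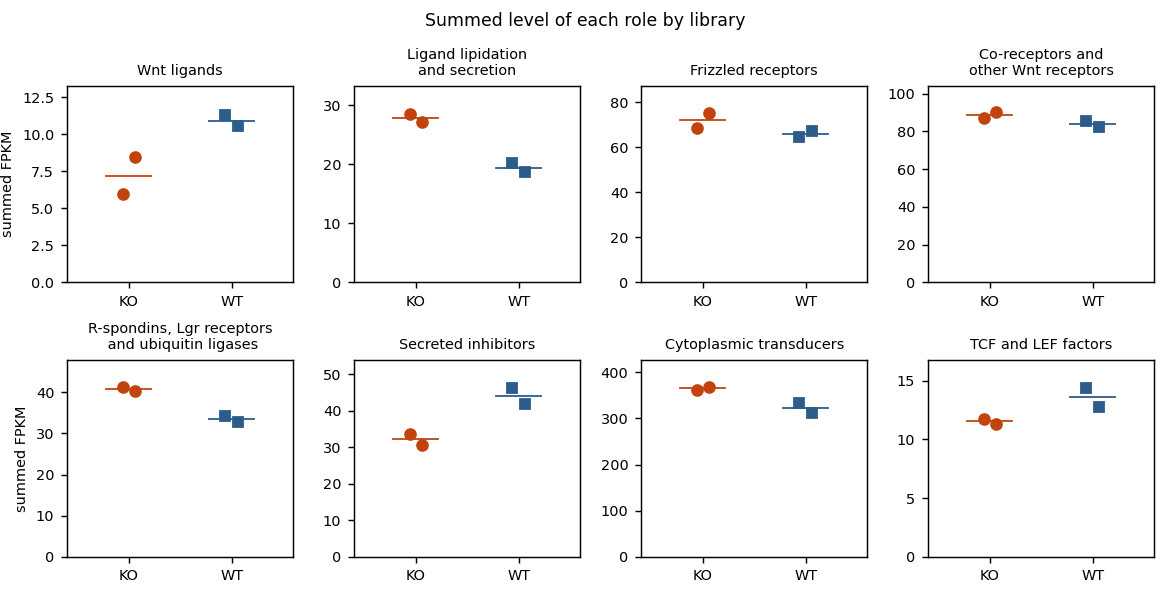
Summed FPKM of the members of each role (vertical axes from 0), with a point for each library and a line at the group mean, KO left of WT. The summed level of the ligands, of the secreted inhibitors and of the TCF and LEF factors was lower in both KO libraries than in either WT library, and that of the other 5 roles was higher. FPKM lack the library scaling of the CPM, so a narrow gap, such as that of the Frizzled sums, can depend on the scale. A sum can follow 1 abundant gene. Ctnnb1 held most of the transducer sum, where 7 of 9 genes had a log2 fold change below 0. Lgr4 held most of the R-spondin and Lgr sum, where 6 of 7 tested genes did. The sums were not tested.

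Genes of the pathway outside the 66 were counted beside them. Like the members, they were chosen with earlier results of these data known, so their share is no independent scale. A list of 79 symbols of further kinases, co-activators, co-repressors, planar polarity genes, modulators and reported target genes, some of them older and current symbols of the same gene, had 74 entries in the files, of which 67 were tested, 2 rose, 7 fell and 58 did not pass. The share called was 13.4%, against 9.25% of all tested genes and 22.2% of the tested members. Their median log2 fold change was -0.02. Bambi, a decoy receptor of the BMP and TGF-beta family that is also a target of beta-catenin, measured 26.8 CPM in both KO libraries and 15.4 and 16.7 CPM in WT (log2 fold change 0.74, SE 0.093, edgeR adjusted p = 0.0096). The formin gene Daam2, which links Dishevelled to the cytoskeleton, rose 2.25-fold, whereas its relative Daam1 fell 1.37-fold (edgeR adjusted p = 0.0243 and 0.0365). That pair, like the Fzd5 and Fzd8 pair, thus had members past the threshold in both directions.

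The list was not divided into targets and other genes, and of its 7 falls those other than Daam1 are given here. Tnfrsf19 measured 4.24 and 3.22 CPM in KO and 12.9 and 11.6 CPM in WT, a 3.27-fold fall (log2 fold change -1.71, SE 0.18, edgeR adjusted p = 0.00516). Fosl1, of the AP-1 family, fell 1.80-fold, Cd44 1.67-fold and the cyclin gene Ccnd1 1.45-fold (edgeR adjusted p = 0.0140, 0.0143 and 0.0164). Igfbp4, which binds insulin-like growth factors and can hold back canonical Wnt signalling, fell 1.70-fold, and Tle3, a co-repressor of TCF factors, fell 1.53-fold (edgeR adjusted p = 0.0110 and 0.0134). Myc measured 123 FPKM in KO and 139 FPKM in WT on average and did not pass (log2 fold change -0.21, SE 0.070, edgeR adjusted p = 0.116). Reported targets in the list thus went both ways: Tnfrsf19, Fosl1, Cd44 and Ccnd1, which fell, are among them, as is Bambi, which rose. Some did not pass, such as Myc, Wisp1 at a log2 fold change of 0.14, Wisp2 at -0.33, Twist1 at 0.36 and Cyr61 at -0.11.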

How the data were processed

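RNA-seq of 4 libraries, 2 KO and 2 WT, was used. Titles gave groups and replicate numbers. The submitters' processing notes name Bowtie2 2.2.5 and the build mm9, while the counting tool and its annotation are not given. For every gene and library the authors' tables hold an expected count, an FPKM and a length, per the file headers. The authors' deposited comparison, named for DESeq2, holds a group signal (normalized counts), a log2 value for the fold change and a p-value with its adjusted form. Depth was 31178248 to 32332044 counts, with 0 set where a library did not list a gene.

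Expected counts were rounded and tested in edgeR 4.0.16 (R 4.3.3) with TMM scaling, filterByExpr and quasi-likelihood F tests over all 4 libraries, and p-values were adjusted by Benjamini-Hochberg over 13773 genes at a threshold of 0.05. Log2 fold changes are KO minus WT, each SE is that value divided by the root of its F statistic, and intervals are 95% from the moderated t distribution. CPM are scaled by TMM, whereas FPKM are as deposited, without that scaling. The step was also run on simulated counts with the same variability for all genes and independent libraries, which cannot show how the present libraries vary. FPKM served to compare levels between genes. Members, gene lists and tests were chosen with earlier results of these data known. Named genes were all members past the threshold or an unadjusted p below 0.05, the highest in each role and the central genes of the pathway. Values of further genes (Wnt2b, Wnt9a, Wnt10a, Porcn, Fzd1, Fzd9, Axin1, Dvl2, Nkd1, Sfrp1, Dkk3, Col2a1, Myc, Wisp1, Wisp2, Twist1 and Cyr61) were added after they were seen. All 66 members have the same symbol in RefSeq, matched by gene number. Alternatives were DESeq2 1.42.0, other scalings and filters, limma 3.58.1 on log2(FPKM + 1) and log2(FPKM + 0.1), a replicate block and leaving out each library.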

Additional observations from a re-analysis of the deposited data

How the results depend on the processing

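Against 498 genes up and 776 down, no filter on low counts gave 265 and 455, and limma gave 490 down on log2(FPKM + 1) and 482 on log2(FPKM + 0.1). Leaving out each library gave 0 to 450 up and 0 to 825 down over edgeR and DESeq2. The DESeq2 runs, chosen after seeing the data, gave 190 up and 354 down without WT replicate 1, 125 and 292 without WT replicate 2, 187 and 447 without KO replicate 1, and 222 up without KO replicate 2. With 1 library left in a group, that library is assumed to vary like the other group. For the members, 4 up and 8 down, no filter gave 3 down, limma on log2(FPKM + 1) gave 4 down and on log2(FPKM + 0.1) 5 down, and leaving out each library gave 0 to 5 up and 0 to 7 down. For the other pathway genes, 2 up and 7 down, no filter gave 1 up, and leaving out each library gave 0 to 3 up and 0 to 8 down. Replicate numbers are shared by KO and WT, but the labels do not say that they pair libraries. Differences between replicates 1 and 2 correlated at 0.126 across genes between KO and WT, and a replicate block gave 949 genes up and 1367 down, with 5 members up and 12 down. The calls it added were Wnt7b (adjusted p 0.01001), Ror1 (0.0482), Notum (0.0447), Sfrp4 (0.0190) and Wif1 (0.0126). Log2 fold changes changed sign for Wnt4 (-0.5175 to 0.0728 over the libraries left out), Wnt5a (-0.44 to 0.6995), Wnt5b (-0.13 to 0.345) and Fzd7 (-0.0077 to 0.1353, and -0.0046 in DESeq2 without WT replicate 1), none of which had passed. Without KO replicate 2, DESeq2 gave -0.44 for Wnt5a and -0.13 for Wnt5b. Of 36 named members, 36 kept direction and side of the threshold under DESeq2 size factors and under a minimum of 1 CPM in 2 libraries. Lrp5 lost its call under upper-quartile scaling (adjusted p 0.0522), and Ctnnb1, Ror1 and Sfrp4 gained one in DESeq2. The cause of these changes was not tested. With 2 libraries a group, genes of few counts such as Wnt10b and Fzd10 have the widest intervals among the calls.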

Other observations

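The deposited length of some genes differed between libraries. It varied by over 2% between libraries for 4 of the tested members, and for 3 of them the groups did not overlap. Wnt5a was listed at 4193 and 4293 bases in KO and 3875 and 4116 bases in WT, with 2 transcripts in the files. Wnt5b was listed at 2311 and 2233 bases in KO and 2384 bases in both WT libraries, with 3 transcripts. Tcf7l2, which has 8 listed transcripts, stood at 4074 and 4063 bases in KO and 3954 and 3961 bases in WT. Lef1 overlapped, at 2924 and 3012 bases in KO and 2988 and 2971 bases in WT. Of 1009 tested genes whose listed length varied that much, 33.4% had groups that did not overlap. The counts behind Wnt5a and Wnt5b are low, at 72 to 159 and 80 to 114 per library, no test was run on the lengths, and the counts per transcript were not used here.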
